A study of Homo sapiens with 11 samples.

Results

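Transcripts of 10 genes of oxygen sensing were followed in Caki-1-SR cells: the transcription factor genes HIF1A and EPAS1, the tumour suppressor VHL, the prolyl hydroxylase genes EGLN1, EGLN2 and EGLN3, and the hypoxia markers CA9, CA12, ADM and NDRG1. They were taken by name, with earlier results of these data known. All 10 were present among the 26485 gene symbols shared by the count tables of both time points. Caki-1 is an established human clear cell renal cell carcinoma (ccRCC) line from a skin metastasis, and the -SR cells, clone 1 in the study, were kept in medium with 1 µM sunitinib, an inhibitor of receptor tyrosine kinases. ODC cells received 4 drugs together, namely the ruthenium drug Rapta-C at 2 µM, the EGFR inhibitor erlotinib at 1 µM, the antidiabetic metformin at 1 µM and the plant-derived anti-inflammatory parthenolide at 5 µM, and CTRL cells were of the same resistant line without the combination. There were 3 CTRL and 3 ODC libraries at 24 h, and 2 CTRL and 3 ODC libraries at 2 h, 11 in all. The libraries of the 2 times carry different date labels, which do not say what was dated, so time and any batch they mark cannot be told apart, and CTRL and ODC were compared within each time. The labels do not say whether libraries of a group came from separate cultures, so p-values measure only the spread between these libraries.

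In a cell with enough oxygen, the EGLN enzymes hydroxylate the alpha subunits encoded by HIF1A and EPAS1, and the VHL protein then marks those subunits for degradation. When oxygen is short or VHL is lost, the subunits persist, pair with ARNT and switch on genes for glycolysis, blood vessel growth and pH control. Loss of VHL is the hallmark of most ccRCC, whereas Caki-1 is generally classed among the lines that retain it. Because this control acts on the proteins, transcript counts of HIF1A and EPAS1 do not measure HIF activity, and the marker genes are the usual transcript readout.

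The count totals were 17785229 to 20882856 per library at 24 h and 25782895 to 31118349 at 2 h, so that 3 counts, taken as the floor, correspond to 0.144 to 0.169 CPM (counts scaled to a common library size) and 0.0964 to 0.116 CPM. Of 10 renal epithelial markers, PAX8, the renal lineage factor, had 9008 to 19542 counts in a library, while PAX2 had 0 to 4. Of 10 markers of other cells, CD68, COL1A1 and PDGFRB were present in every library, whereas the defining endothelial and leukocyte markers PECAM1, CDH5, PTPRC and CD3E had at most 9 counts. CTRL library 1 at 2 h stood apart with 73 counts of DCN, 100 of EPCAM and 13 of VWF, a further endothelial marker. The other 10 libraries had at most 3, 27 and 2. Results at 2 h are therefore also given without CTRL library 1 where their direction depends on that library.

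In control cells, HIF1A and VHL were the most abundant of these transcripts, and 3 of the 10 genes were at or near the detection floor. Levels were compared between genes as TMM-scaled CPM per kilobase of exon, with all annotated exons of a gene merged (GENCODE annotation of hg38). HIF1A, the oxygen-labile factor present in most cells, had 51.9, 41.1 and 39.1 CPM per kb in CTRL libraries 1, 3 and 5 at 24 h, and 75.4 and 54.1 in CTRL libraries 1 and 2 at 2 h. VHL, the substrate receptor of the ligase that marks HIF subunits, followed with 30.4 ± 0.953 (SD, n = 3) at 24 h and 32.5 ± 5.88 (SD, n = 2) at 2 h. The control libraries of these genes did not overlap at either time.

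EPAS1, which encodes the HIF-2 alpha subunit, EGLN1, the main oxygen sensor among the hydroxylases, and ADM, which encodes the vasodilator peptide adrenomedullin, formed the next group at 24 h. Their mean levels were 9.01 ± 2.74, 8.43 ± 0.854 and 7.75 ± 1.82 CPM per kb (SD, n = 3), and their ranges overlapped, so that no order among them exceeded the spread between libraries. At 2 h the same genes were separate, with EGLN1 at 11.7 to 12.1, EPAS1 at 8.36 to 8.45 and ADM at 5.03 to 5.58 CPM per kb. NDRG1, a stress-responsive gene named for its repression by N-myc, had 1.74 ± 0.166 CPM per kb at 24 h, below ADM in every control library, and 4.45 ± 1.03 at 2 h, where its range overlapped that of ADM. The place of NDRG1 depends on the length used, since its merged exons span 12002 bases and its longest transcript 3983: per kb of longest transcript it had 5.24 at 24 h, still below ADM, and 15.6 and 11.2 in the CTRL libraries at 2 h, above ADM and on both sides of EPAS1 (11.8 and 11.95).

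EGLN3, the hydroxylase that is itself induced by HIF, was far lower, at 0.0997 ± 0.022 CPM per kb (SD, n = 3) at 24 h and 0.216 ± 0.0141 (SD, n = 2) at 2 h, from 10 to 18 and 43 counts per library. CA9, the surface carbonic anhydrase used as a ccRCC marker, had 1 count in a CTRL library and 1 in an ODC library, and 0 in the other 9 libraries. CA12, a related surface enzyme, had 5 and 9 counts in the CTRL libraries at 2 h and 0 or 1 at 24 h. EGLN2, the third hydroxylase, had 0 to 4 counts in any library.

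**Figure D1:**
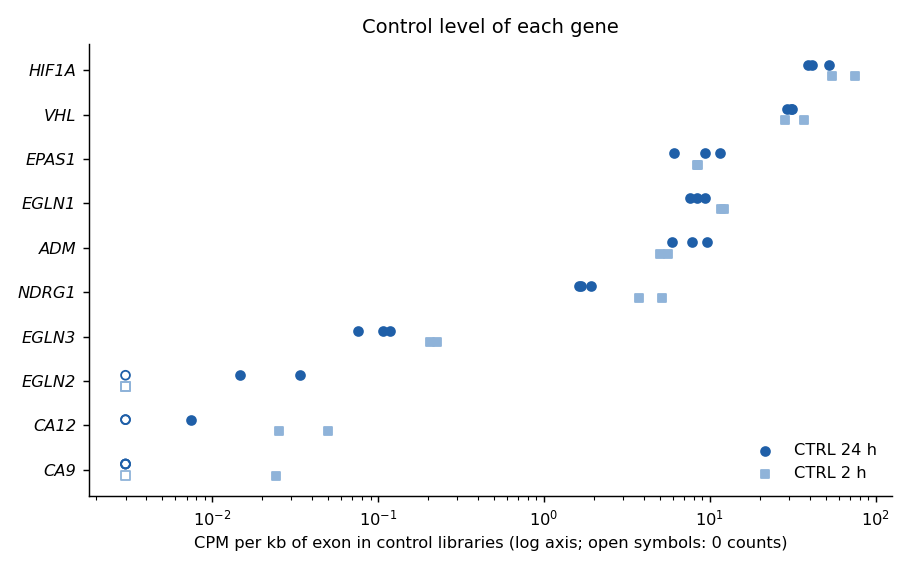
Level of each of the 10 genes in the CTRL libraries, in TMM-scaled CPM per kb of merged exon on a log axis, with circles for the 3 libraries at 24 h, squares for the 2 at 2 h and open symbols for libraries with 0 counts, set at the left edge. HIF1A lies highest, with 39.1 to 51.9 at 24 h, and CA9, CA12 and EGLN2 lie lowest.

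The low counts of EGLN2 have to be read with its place in the annotation, and CA9 and EGLN1 also overlap other genes. EGLN2 (chromosome 19, 40798996 to 40808434, plus strand) shares 95.8% of its canonical transcript, 2012 of 2100 bases, with the read-through gene RAB4B-EGLN2 on the same strand, which had 0 counts in all 11 libraries. Of 122 read-through entries with both partners in the tables, the downstream partner had at most 10 counts in every library in 79 (64.8%), against 47.5% of all genes. Whether reads shared with the read-through gene were left uncounted was not tested, so the value of EGLN2 is uncertain. CA9 (chromosome 9, 35673928 to 35681159, plus strand) shares 36.9% of its canonical transcript, 571 of 1546 bases, with ARHGEF39 on the opposite strand, which had 226 to 557 counts. The other bases of CA9 share no exon with an annotated gene. EGLN1 (chromosome 1, 231363751 to 231422287, minus strand) shares 69.3% of its canonical transcript with a same-strand protein-coding entry that has no symbol in the tables.

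Promoter sequence was examined because hypoxia-inducible factors bind the core letters ACGTG or GCGTG. In RefSeq windows of 250 bases before the transcription start (GRCh38.p14), searched on both strands, ACGTG occurred in 18.5%, GCGTG in 32.2% and at least 1 of them in 43.2% of 35116 promoters. CA9, EGLN1 and EGLN2 held ACGTG, HIF1A, EPAS1, CA12 and ADM held GCGTG, and EGLN3 held neither in its window. HIF1A and EGLN2 each have a further window that held neither, and VHL and NDRG1 were not examined. The last 120 bases before the start are shown for 3 genes of unlike control level, the marker with almost no counts and a marker and a hydroxylase that were well expressed, with the core letters in capitals (as CACGT where ACGTG lies on the other strand). The matches are letters in these windows and say nothing of binding.
CA9 (chr9:35673808-35673927, plus strand): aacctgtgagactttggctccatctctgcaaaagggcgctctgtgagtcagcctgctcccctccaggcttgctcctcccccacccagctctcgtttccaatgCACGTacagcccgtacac
ADM (chr11:10304953-10305072, plus strand): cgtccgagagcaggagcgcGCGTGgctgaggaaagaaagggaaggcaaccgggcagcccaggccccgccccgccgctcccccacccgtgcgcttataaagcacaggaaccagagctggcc
EGLN1 (chr1:231422288-231422407, minus strand): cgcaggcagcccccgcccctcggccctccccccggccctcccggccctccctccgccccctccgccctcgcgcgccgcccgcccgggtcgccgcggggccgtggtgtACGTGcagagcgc

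At 24 h, NDRG1 was the member that changed: its transcript was higher in ODC-treated than in CTRL cells. NDRG1 (chromosome 8, 133237175 to 133302022, minus strand) had 19.5, 23.2 and 20.0 CPM in CTRL libraries 1, 3 and 5, and 45.2, 64.2 and 60.1 CPM in ODC libraries 2, 4 and 6. Every ODC library lay above every CTRL library. The means were 20.9 ± 2.00 and 56.5 ± 10.0 CPM (SD, n = 3 each), a log2 fold change of 1.44 (SE 0.16, 95% interval 1.08 to 1.79, adjusted p = 0.0245, edgeR quasi-likelihood test), the eighth smallest p among 12689 genes tested. Of those genes, 24 (0.189%) passed the same threshold. The size of the difference was between 1.33 and 1.57 when any library was left out, but with CTRL library 1, 3 or 5 left out the adjusted p rose to 0.188, 0.0855 and 0.0713 (edgeR). The CTRL libraries at 2 h, of the other date label, had 53.4 ± 12.4 CPM of NDRG1 (SD, n = 2), near the ODC level at 24 h. The call is therefore relative to the CTRL libraries of 24 h only.

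None of the 8 tested renal epithelial markers was called at 24 h by edgeR, against 0.189% of all genes. An unadjusted p under 0.05 was found for 5 (62.5%), 4 of them lower in ODC. Of all 12689 genes, 12.2% had such a p, and 640 genes were lower at that level. The summed level of the 10 listed markers, to which VIM contributed the most (3342 ± 199 CPM in CTRL, SD, n = 3), was 4951 to 5797 CPM in the CTRL and 3974 to 4918 CPM in the ODC libraries at 24 h, with KRT18 and KRT8, the keratins of simple epithelia, at log2 fold changes of -0.71 (SE 0.15, adjusted p = 0.128, edgeR) and -0.62 (SE 0.17, adjusted p = 0.202). GGT1, a tubular brush border enzyme, and PAX8 had fold changes in the other direction, 0.75 (SE 0.26, adjusted p = 0.284) and 0.33 (SE 0.22, adjusted p = 0.600), and CDH2 was at -0.02 (SE 0.14). The summed level of the markers of other cells was 72.2 to 148 CPM in CTRL and 123 to 177 CPM in ODC libraries. The part of these in the NDRG1 result was not tested, and in bulk RNA fewer cells of a kind and less RNA per cell cannot be told apart.

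Of the 2 factor genes, EPAS1 had the larger difference at 24 h, which did not pass the adjusted threshold. EPAS1 (chromosome 2, 46293667 to 46386697, plus strand) had 68.2, 84.2 and 44.6 CPM in CTRL libraries 1, 3 and 5 and 125.8, 143.7 and 68.5 CPM in ODC libraries 2, 4 and 6. ODC library 6 lay within the CTRL range, so the groups overlapped. The log2 fold change was 0.78 (SE 0.30, 95% interval 0.08 to 1.48, adjusted p = 0.352, edgeR), and leaving out each library in turn gave 0.56 to 1.04. EPAS1 and NDRG1 were the 2 of 7 tested members with an unadjusted p under 0.05, a level that 12.2% of all genes passed in either direction and 7.2% passed as higher in ODC.

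At 24 h, each library deviated most like the library of adjacent number among those of the other group. Libraries within a group were not compared. The deviations from the group means, across genes, correlated at 0.271, 0.627 and 0.49 between libraries 1 and 2, 3 and 4, and 5 and 6, although no label states pairs. Libraries 1 and 6, which are not adjacent, correlated at 0.244, close to libraries 1 and 2, and the other non-adjacent CTRL and ODC libraries at -0.571 to -0.006. Deviations within a group sum to 0, so positive values for some pairs bring negative values for others. The contrast is thus in part set by this step and does not show that the libraries were paired. Within these pairs, EPAS1 was higher in ODC by 0.88, 0.77 and 0.62 on the log2 scale, and NDRG1 by 1.22, 1.47 and 1.59. With adjacent libraries as a block, EPAS1 was also called (log2 fold change 0.76, SE 0.08, adjusted p = 0.0083, edgeR), as was NDRG1 (1.42, SE 0.10, adjusted p = 0.0036), in a fit that called 686 of 12689 genes (5.41%). VHL had pair differences of -0.17, -0.17 and -0.10 and was not called in that fit (adjusted p = 0.223).

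HIF1A did not differ beyond its spread at 24 h. HIF1A (chromosome 14, 61695513 to 61748259, plus strand) had 267.3, 211.7 and 201.7 CPM in CTRL and 261.7, 245.1 and 242.4 CPM in ODC libraries. The ODC values lay inside the CTRL range, and the log2 fold change was 0.14 (SE 0.12, 95% interval -0.14 to 0.42, adjusted p = 0.711, edgeR). The ratio of EPAS1 to HIF1A, per kb of merged exon, was 0.180, 0.281 and 0.156 in the CTRL libraries and 0.340, 0.414 and 0.200 in the ODC libraries at 24 h. ODC library 6 again fell within the CTRL range. At 2 h the ratio was 0.111 and 0.156 in CTRL and 0.11, 0.17 and 0.149 in ODC libraries, with overlap.

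VHL was slightly lower in every ODC library at 24 h, without passing the test. VHL (chromosome 3, 10141778 to 10153667, plus strand) had 146.6, 155.6 and 153.9 CPM in CTRL and 130.5, 138.7 and 143.9 CPM in ODC libraries. The groups did not overlap, which was also so for 17.9% of all genes tested, and the log2 fold change was -0.14 (SE 0.09, 95% interval -0.34 to 0.06, adjusted p = 0.569, edgeR). An unnamed lncRNA on the opposite strand covers 26.6% of its canonical transcript.

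EGLN1, EGLN3 and ADM had log2 fold changes whose intervals included 0 at 24 h. EGLN1 had 44.9, 41.0 and 50.2 CPM in CTRL and 41.2, 47.5 and 65.3 CPM in ODC libraries (log2 fold change 0.18, SE 0.17, 95% interval -0.23 to 0.58, adjusted p = 0.746, edgeR). EGLN3 had 0.87, 0.78 and 0.55 CPM in CTRL and 0.64, 0.70 and 0.43 CPM in ODC libraries, with a log2 fold change of -0.32 (SE 0.35, 95% interval -1.12 to 0.48, adjusted p = 0.778). The ranges of both overlapped between the groups. EGLN3 rests on 9 to 18 counts per library, so only large differences were detectable at this depth.

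ADM had 18.1, 13.8 and 22.2 CPM in CTRL and 13.2, 13.9 and 31.4 CPM in ODC libraries at 24 h. ODC library 6 held the highest and ODC library 2 the lowest value of all 6. The log2 fold change was 0.11 (SE 0.34, 95% interval -0.68 to 0.91, adjusted p = 0.931, edgeR), and it was -0.41 without ODC library 6 and -0.047 without CTRL library 3, so ADM has no stable direction. EGLN1 was at -0.035 without ODC library 6. CA9, CA12 and EGLN2 did not pass the filter on low counts at 24 h, and no fold is given for them: CA12 had 1 count over the CTRL and 0 over the ODC libraries, CA9 0 and 1, and EGLN2 6 and 2.

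**Figure D2:**
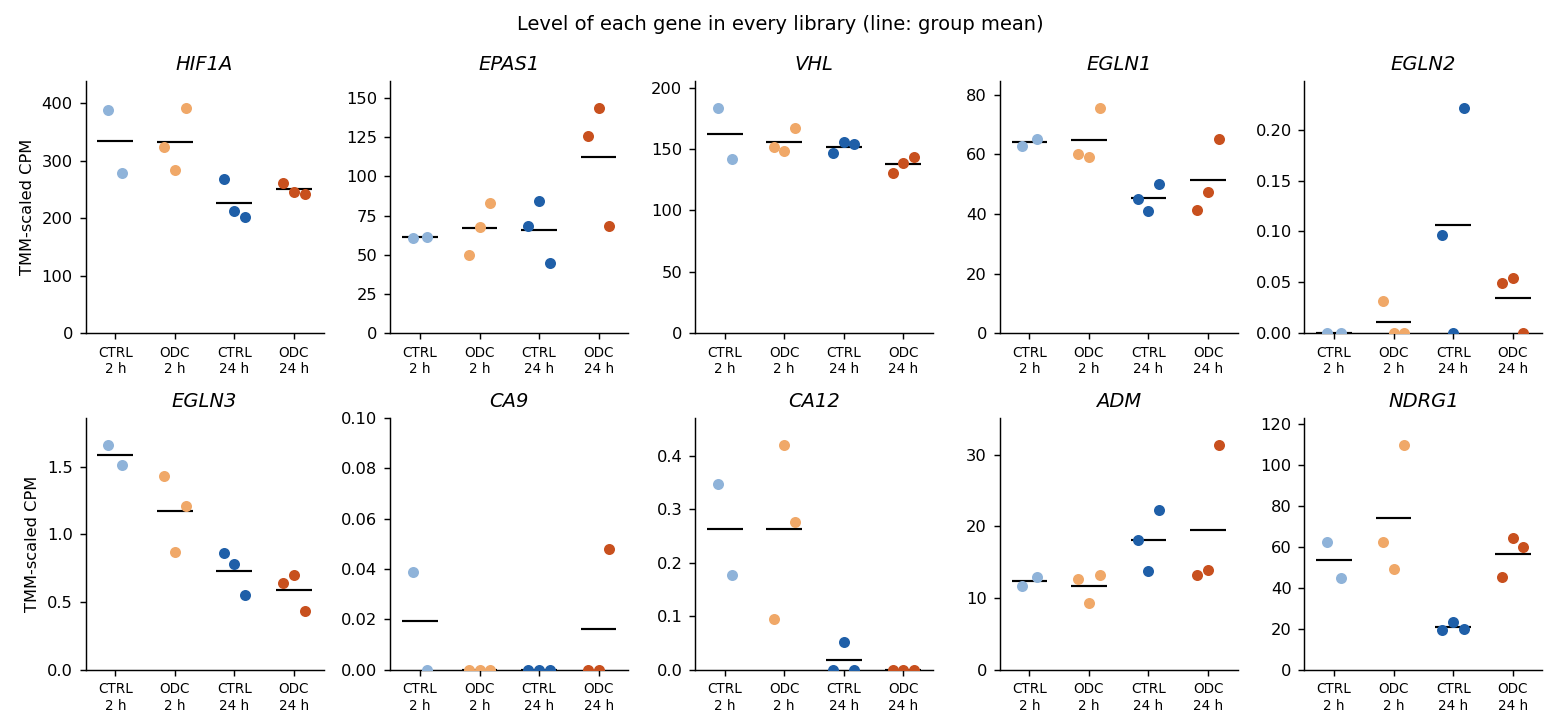
TMM-scaled CPM of each gene (1 panel per gene, linear axis from 0) in each of the 11 libraries, with points for libraries and a line for the mean of each group. In the NDRG1 panel the 3 ODC libraries at 24 h, at 45.2 to 64.2, lie above the 3 CTRL libraries at 19.5 to 23.2.

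**Figure D3:**
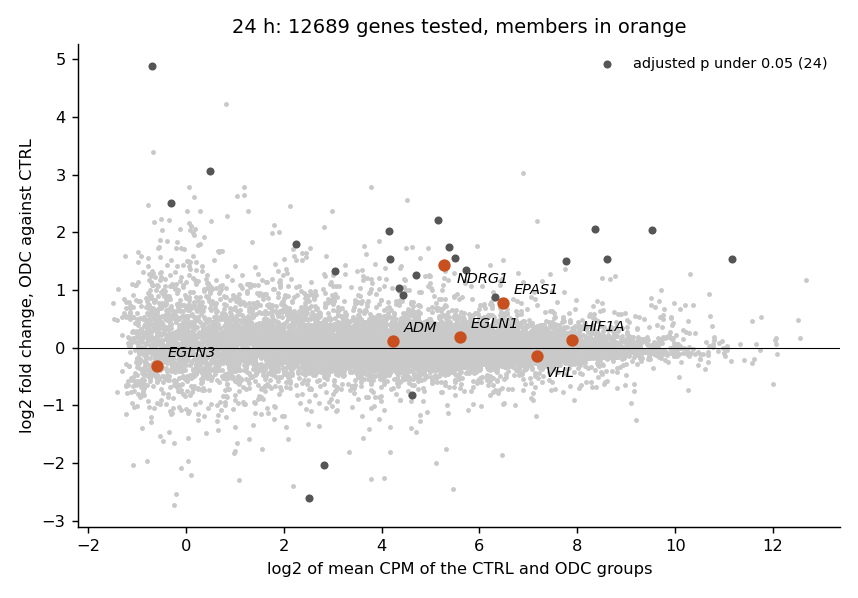
Log2 fold change of ODC against CTRL at 24 h for 12689 genes tested, against the log2 of the mean CPM of both groups, with the 24 genes of adjusted p under 0.05 in dark grey and the 7 tested members in orange. NDRG1 at 1.44 lies among the called genes, and the other 6 members lie within the cloud of all genes.

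At 2 h, no member passed the test. By the edgeR quasi-likelihood test, no gene of 13332 (0%) had an adjusted p under 0.05, while the edgeR likelihood ratio test called 5 and DESeq2 1, and none of the 8 tested members had an unadjusted p under 0.05, against 2.34% of all genes. These other tests called 0 members. NDRG1 had 62.1 and 44.6 CPM in CTRL libraries 1 and 2, and 62.5, 49.3 and 109.8 CPM in ODC libraries 3, 4 and 5. ODC library 5 was the highest and ODC library 4 lay within the CTRL range, with a log2 fold change of 0.47 (SE 0.31, 95% interval -0.25 to 1.19, adjusted p = 1.0). Without ODC library 5 it was 0.069.

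EGLN3 was the member whose groups did not overlap at 2 h, with 1.66 and 1.52 CPM in CTRL and 1.43, 0.87 and 1.21 CPM in ODC libraries. The log2 fold change was -0.44 (SE 0.31, 95% interval -1.16 to 0.28, adjusted p = 1.0, edgeR), and 15.3% of all genes had groups that did not overlap. EPAS1 had 60.9 and 61.6 CPM in CTRL and 50.2, 68.0 and 82.8 CPM in ODC libraries, a log2 fold change of 0.13 (SE 0.19). The ODC values of EPAS1 lay on both sides of the CTRL values.

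HIF1A varied widely within both groups at 2 h, and VHL mainly between the 2 CTRL libraries. HIF1A had 388.4 and 278.7 CPM in CTRL and 323.0, 283.2 and 391.4 CPM in ODC libraries, and VHL had 183.4 and 141.8 CPM in CTRL and 151.5, 148.3 and 167.2 CPM in ODC libraries. The log2 fold changes were -0.0043 (SE 0.17) and -0.06 (SE 0.12), and without CTRL library 1 they were 0.25 and 0.13. EGLN1, ADM and CA12 had log2 fold changes of 0.02 (SE 0.13), -0.07 (SE 0.18) and 0.02 (SE 0.70), and EGLN1 was at -0.0040 without CTRL library 1. CA12 rests on 3 to 13 counts per library, and its 95% interval ran from -1.60 to 1.64.

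Whether ODC acted differently after 24 h than after 2 h was tested in all 11 libraries, and no member passed that test by edgeR or by DESeq2. NDRG1 had the largest difference of the 7 members tested, 0.95 on the log2 scale (SE 0.38, 95% interval 0.13 to 1.77, adjusted p = 0.759, edgeR). It was the 1 member with an unadjusted p under 0.05, a level that 5.93% of 13333 genes passed, while 2 genes (0.015%) passed the adjusted threshold. EPAS1 had a difference of 0.63 (SE 0.41, 95% interval -0.27 to 1.53, adjusted p = 0.956). The call for NDRG1 at 24 h is thus not shown to differ from 2 h.

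**Figure D4:**
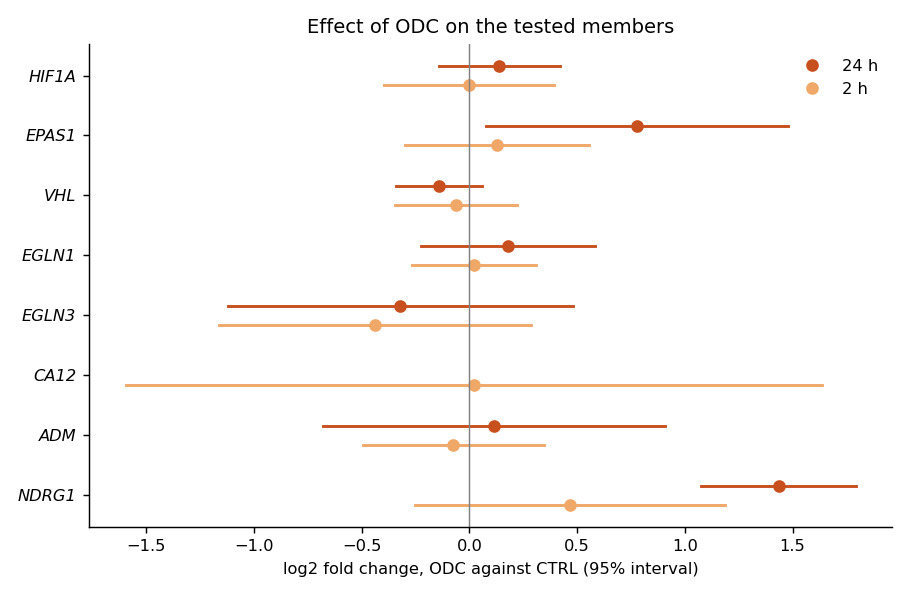
Log2 fold change of ODC against CTRL for the tested members, with dots for the estimate and lines for the 95% interval, dark orange at 24 h and light orange at 2 h. The intervals of NDRG1 (1.08 to 1.79) and EPAS1 (0.08 to 1.48) at 24 h lie above 0, and all intervals at 2 h include 0.

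The other parts of the oxygen-sensing machinery showed no called gene, but few genes were called at all. By edgeR these were 24 of 12689 (0.189%) at 24 h and 0 of 13332 at 2 h. Of 24 further components, among them the partner subunit ARNT, the asparaginyl hydroxylase HIF1AN, the ligase subunits CUL2, RBX1, ELOB and ELOC and the coactivators EP300 and CREBBP, 23 were tested at 24 h. Their fold changes were higher in ODC for 12 and lower for 11, with a median of 0.05 on the log2 scale, against 0.0009 for all genes. By edgeR 0 were called, and 2 (8.7%) had an unadjusted p under 0.05, both lower, against 12.2% of all genes in either direction. They were ARNT2, an alternative partner subunit, at 3.63 ± 0.614 and 1.97 ± 0.55 CPM (SD, n = 3 each, log2 fold change -0.89, SE 0.27, adjusted p = 0.242), and CUL2, the cullin scaffold of the VHL ligase, at 147 ± 10.8 and 126 ± 4.77 CPM (-0.22, SE 0.09, adjusted p = 0.395). At 2 h, 1 of 23 (4.35%, against 2.34% of all genes) had an unadjusted p under 0.05, FKBP8, a chaperone of the outer mitochondrial membrane, at 0.21 (SE 0.08, adjusted p = 1.0).

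Known HIF target genes other than the members had more higher than lower fold changes at 24 h, and 1 was called. Of 73 listed targets 64 were tested, 47 of them with a higher and 17 with a lower fold change in ODC, and the median was 0.12 on the log2 scale. IGFBP3, a secreted binder of insulin-like growth factors, was called, at 126 ± 18.3 CPM in CTRL and 528 ± 177 CPM in ODC (SD, n = 3 each, log2 fold change 2.06, SE 0.23, adjusted p = 0.0251, edgeR). At 2 h IGFBP3 had 480 ± 238 CPM in CTRL (SD, n = 2). In ODC at 2 h it had 486 ± 105 CPM (SD, n = 3). An unadjusted p under 0.05 was found for 13 (20.3%), all higher, against the 7.2% of all genes that were higher at that level. The lists were chosen with earlier results of these data known, so these counts, like those at 2 h below, only describe the lists as chosen. The list count depended on the test, with 4 called by the edgeR likelihood ratio test, 2 by DESeq2 and 10 with adjacent libraries as a block. Over all 12689 genes, the same fits called 401, 378 and 686. With the block, 9 of the called targets were higher and EDN1 was lower. With CTRL library 1, 3 or 5 or ODC library 2 left out, 0 targets were called, so the call of IGFBP3 was lost in 4 of 6 such fits.

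Among 22 tested genes of glucose uptake and glycolysis, 19 had a higher and 3 a lower fold change (6363 and 6326 of all genes), with a median of 0.13. Of these, 0 were called, against 0.189% of all genes. The smallest p values belonged to PFKFB3, which makes an activator of glycolysis, at 144 ± 32.8 and 282 ± 55.3 CPM (log2 fold change 0.97, SE 0.20, adjusted p = 0.114, edgeR), to ALDOC, an aldolase (0.65, SE 0.20, adjusted p = 0.246), and to SLC16A3, a lactate exporter (0.35, SE 0.11, adjusted p = 0.247). With adjacent libraries as a block, PFKFB3 (adjusted p = 0.0054) and ALDOC (adjusted p = 0.035) were called. Of 17 secreted, vascular and matrix genes, 11 were higher and 6 lower. Beside IGFBP3 these held P4HA2, a collagen prolyl hydroxylase (log2 fold change 0.36, SE 0.11, adjusted p = 0.239, edgeR), which was called with the block (adjusted p = 0.032).

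Of 25 intracellular targets, 17 had a higher and 8 a lower fold change (6363 and 6326 of all genes). Their median was 0.11, and 0 were called, against 0.189% of all genes. HMOX1, the haem-degrading enzyme that oxidative stress also induces, had 26.1 ± 12.7 and 213 ± 241 CPM (SD, n = 3 each, log2 fold change 3.03, SE 0.82, adjusted p = 0.19, edgeR), with an SD among the ODC libraries above their mean. MIR210HG, the host transcript of the hypoxia-linked microRNA miR-210, had 1.06 ± 0.424 and 2.52 ± 0.712 CPM (1.25, SE 0.36, adjusted p = 0.223). KDM3A, a histone demethylase, had a log2 fold change of 0.39 (SE 0.16, adjusted p = 0.37). With the block, HMOX1 (log2 fold change 2.51, adjusted p = 0.017) and MIR210HG (adjusted p = 0.031) were called and KDM3A was not (adjusted p = 0.16).

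At 2 h, 46 of 66 tested targets had a higher and 20 a lower fold change, against 6427 and 6905 of all 13332 genes. The median was 0.065 against -0.006 for all genes, and edgeR and DESeq2 called 0 of the targets. An unadjusted p under 0.05 was found for 3, all higher, against 1.47% of all genes higher at that level. They were MIF, a cytokine (0.33, SE 0.10), EDN1, which encodes the vasoconstrictor endothelin (0.99, SE 0.38), and KDM4B, a histone demethylase (0.31, SE 0.11), all with an adjusted p of 1.0 by edgeR. EDN1 had 1.71 ± 0.28 CPM in CTRL (SD, n = 2) and 3.41 ± 1.46 CPM in ODC (SD, n = 3).

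**Figure D5:**
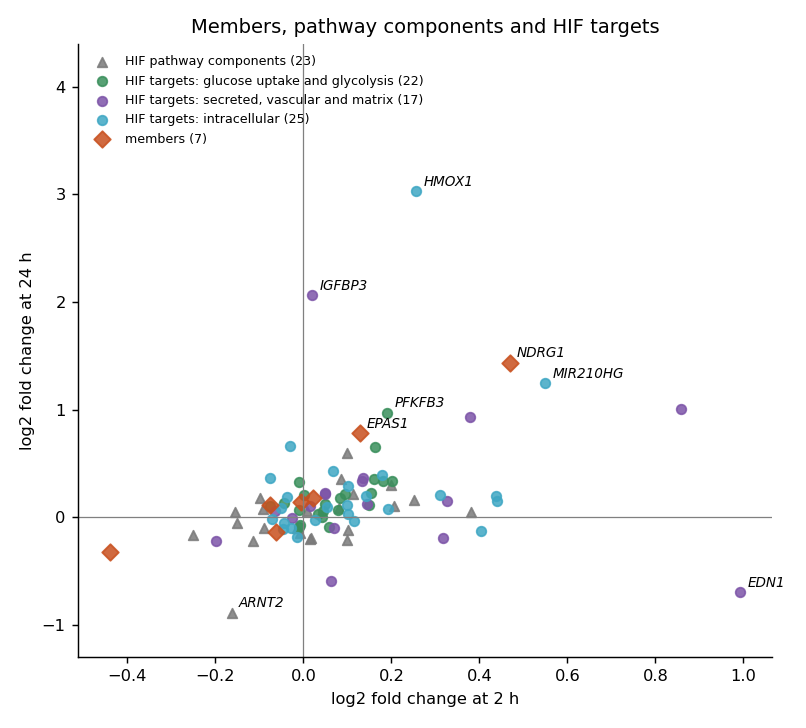
Log2 fold change of ODC against CTRL at 24 h (vertical) against that at 2 h (horizontal) for the members, 23 other pathway components and 3 lists of HIF targets, 1 symbol per gene tested at both times. HMOX1, IGFBP3, NDRG1 and MIR210HG lie highest at 24 h, from 1.25 to 3.03, with values of 0.02 to 0.55 at 2 h.

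The relatives of the markers were mostly low in these cells. Of 13 other carbonic anhydrase genes, 5 were tested at 24 h, and CA8, a catalytically inactive family member, had 0.269 ± 0.143 and 1.15 ± 0.322 CPM (SD, n = 3 each, log2 fold change 2.04, SE 0.44, adjusted p = 0.125, edgeR). CA2, the cytosolic enzyme, was the most abundant of them with 395 to 2841 counts per library. NDRG3 and NDRG4, paralogs of NDRG1, had log2 fold changes of -0.27 (SE 0.10, adjusted p = 0.309) and 1.14 (SE 0.32, adjusted p = 0.212). ADM2, the peptide related to ADM, had 6.66 ± 1.86 and 3.43 ± 0.323 CPM (-0.96, SE 0.24, adjusted p = 0.173). The receptor genes for adrenomedullin were near 0, with 1 to 10 counts of CALCRL and 0 of RAMP2 and RAMP3 in every library.

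The genes whose pattern was most like that of NDRG1, by Pearson's r of log2 CPM over the 11 libraries after the mean of each time was subtracted, were SEL1L3 (0.961), ITFG1 (0.954), CPLX1 (0.949), ROBO1 (0.941) and GRIA4 (0.939). They were picked for likeness in these same libraries, which share treatment and depth, so their values are descriptions only. SEL1L3 had 50.9, 58.2 and 59.0 CPM in the CTRL and 88.2, 112.3 and 107.2 CPM in the ODC libraries at 24 h, without overlap, as for 17.9% of all genes. At 2 h it had 73.8 and 69.6 CPM in CTRL and 71.4, 69.6 and 90.7 CPM in ODC libraries, with ODC library 5 highest as for NDRG1.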

How the data were processed

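RNA of Caki-1-SR cells was made into stranded mRNA libraries (11 libraries). Per the labels, the authors aligned reads to hg38 with STAR 2.7.0f and counted them per gene with HTSeq 0.9.1, and the values they deposited are raw counts per gene symbol, 1 table per time. The strand and overlap settings of the counting are not given in the sources used here. Tables and figures were made with Python 3.11.15, and tests with R 4.3.3 and edgeR 4.0.16: filterByExpr (minimum count 10, total 15), TMM scaling, a quasi-likelihood test (legacy), two-sided, with Benjamini-Hochberg adjustment over all genes tested and a threshold of 0.05, for each time apart and for the difference in all 11 libraries. The test was checked on simulated data. Replicate libraries differed by more than sampling noise (chi-square 19.7 to 61.5 per gene). Of 26485 symbols, 22853 were matched to the annotation directly and 1362 by an older symbol. The SEs and intervals of the log2 fold changes come from the quasi-likelihood test and include the spread between libraries.

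The members and lists were chosen with earlier results of these data known. Beside the members and the 5 genes most like the member of smallest p, genes called in the main tests were named. Of each list, at most the 3 genes of smallest p at each time were named, and not all of that rank were. A listed gene that this rule names is not reported here. Alternatives were other filters, scalings and tests (DESeq2 1.42.0 among them), a joint fit, leaving out each library and a block of adjacent libraries. CA2, CDH2, DCN, EPCAM, PAX8, VIM and VWF were named after their values were seen.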

Additional observations from a re-analysis of the deposited data

How the results depend on the processing

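Of 375 alternative values of single members, 349 kept their direction and side of the threshold. Among the 210 without left-out libraries or the block, the exception was HIF1A at 2 h, 0.0093 with every gene of at least 1 count. Members called at 24 h were 1, 0 to 1 with a library left out and 2 with the block of adjacent libraries. HIF targets called at 24 h were 1 in the main test, 0 to 1 with a library left out (0 without CTRL library 1, 3 or 5 or ODC library 2), 4 with the likelihood ratio test, 2 with DESeq2, 2 with the joint fit and 10 with the block, and for the difference 0 in the main test and 1 with every gene, the likelihood ratio test and DESeq2. Over all genes, 24 were called at 24 h, 401 with the likelihood ratio test, 378 with DESeq2, 186 with the joint fit and 2 to 70 with a library left out. The cause was not tested. For NDRG1 the block moved the adjusted p to 0.0036 and for EPAS1 to 0.0083 (edgeR), with log2 fold changes of 1.42 and 0.76.

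Members that changed sign with a library left out had these log2 fold changes. At 24 h ADM ranged from -0.41 to 0.33, with -0.047 without CTRL library 3 and -0.41 without ODC library 6, and EGLN1 from -0.035 (without ODC library 6) to 0.31. At 2 h HIF1A ranged from -0.21 to 0.25, with 0.25, 0.016 and 0.098 without CTRL library 1, ODC library 3 and ODC library 4. VHL ranged from -0.22 to 0.13, EPAS1 from -0.051 to 0.30, EGLN1 from -0.099 to 0.083 (-0.0040 without CTRL library 1), CA12 from -0.38 to 0.57 (-0.011 without ODC library 5) and ADM from -0.16 to 0.067 (0.019 without CTRL library 2). In the difference HIF1A ranged from -0.13 to 0.33, VHL from -0.29 to 0.064, EGLN1 from -0.080 to 0.28 and ADM from -0.36 to 0.40. EGLN3 there ranged from -0.069 to 0.28, with -0.034 and -0.061 without ODC library 4 and CTRL library 5 of 24 h.

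Control levels per kb moved with the length used, upwards for each gene named here. With the longest transcript the levels at 24 h were 57.4 for HIF1A, 12.7 for EPAS1, 33.6 for VHL, 10.5 for EGLN1, 0.258 for EGLN3 and 5.24 for NDRG1, and at 2 h 84.3 for HIF1A, 11.9 for EPAS1, 14.8 for EGLN1, 0.558 for EGLN3, 6.53 for ADM and 13.4 for NDRG1. Low counts limit EGLN2, EGLN3, CA9 and CA12, which had at most 45 counts in any library. Whether depth or uncounted shared reads lie behind the low counts of EGLN2 was not tested.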
